A study of Mus musculus with 15 samples.

Results

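The islets of 3 NOD females at 8 weeks of age were compared with those of 3 NOD females at 6 weeks, 6 of the 15 mice whose islets were sequenced. The mice were selected by their age label alone. NOD (NOD/ShiLtJ) mice develop autoimmune diabetes spontaneously, and the 4-, 10- and 12-week-old mice of the series, 3 at each age, were kept in the fit to estimate the spread between animals. No mouse carried a transgene or received a treatment, and the ages share strain and sex, so the comparison follows age in different animals and not 1 animal over time. Islets were obtained by collagenase digestion and density gradient, so each library holds endocrine cells together with any immune, stromal or exocrine cells that remained attached.

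Insulitis is the entry of leukocytes into and around the islets. T lymphocytes recognise beta-cell peptides presented on MHC molecules, B lymphocytes present antigen and give rise to antibody-secreting cells, and macrophages and dendritic cells take up islet material and attract further leukocytes. Fibroblasts and vessels form the stroma through which these cells pass, and chemokines such as Cxcl13 and Ccl19 arrange them into lymphoid aggregates. In bulk RNA, more or fewer cells of a type and more or less RNA per cell cannot be told apart.

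The deposited table holds read counts for 48709 genes, and the 6 libraries summed to between 26955671 and 41616275 counts. Of these genes, 16554 passed the filter on low counts and were tested with the quasi-likelihood test of edgeR. Values per mouse are given as counts or as CPM, counts scaled to library size with TMM factors, at which 3 counts (the floor used here) correspond to 0.0789 to 0.119 CPM. A gene is said to pass the threshold, and to have risen or fallen, at a fold change of at least 1.5 and a p under 0.05, limits taken from the study and read here as an unadjusted p. In total 1625 genes passed it (9.82% of those tested), 1390 higher (8.4%) and 235 lower (1.42%) at 8 weeks. For 2983 genes the unadjusted p was under 0.05, but 0 had a p under 0.05 after Benjamini-Hochberg adjustment in edgeR, where the smallest adjusted p was 0.087. DESeq2 called 543 genes after adjustment and the edgeR exact test 301. All p values named below are from edgeR and unadjusted unless stated.

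The tissue label was checked on its defining markers, which were abundant in all 6 libraries. Ins1, one of the insulin genes, was at 51040 to 75810 CPM, and Gcg, the glucagon gene, at 28120 to 42420 CPM. Acinar enzymes, the products of the exocrine pancreas, summed to 3416 to 14380 CPM over 15 genes in the 6-week-old mice and to 2560 to 9015 CPM at 8 weeks. Replicate 2 at 6 weeks also held transcripts of intestinal epithelium that were at or near 0 in the other 5 libraries. Alpi, Apoa4 and Sis had 461, 540 and 270 counts in it and 0 in each of the others. Of 10 neutrophil markers, Retnlg and Camp were at 0 in all 6 libraries, and Ly6g, S100a8, S100a9, Ltf, Ngp and Cxcr2 had 6 or fewer counts in each. Mpo reached 16 counts in 8-week replicate 3. Of the 2 markers tested 1 rose, Csf3r, a cytokine receptor that monocytes also carry, from 4, 20 and 37 to 23, 121 and 129 counts (log2 fold change 2.20, p 0.0194).

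The 3 mice at 8 weeks did not move together. Replicates 2 and 3 exceeded every 6-week-old mouse for 33.7% and 31.6% of the genes tested, and replicate 1 for 21.8%. Of the 1390 genes that rose, 511 (36.8%) were above all 6-week-old mice in all 3 older mice, against 7.62% of all genes tested. A further 851 (61.2%) were above them in replicates 2 and 3 but not in replicate 1, against 15.6%. Of the 235 genes that fell, 192 (81.7%) lay below the 6-week range in all 3, against 11.7% of all genes tested. Genes that rose or fell were selected by the difference between the ages, so their higher shares are partly set by that selection. The SD of log2 CPM was larger at 8 than at 6 weeks for 59.2% of all genes tested. Among the genes that rose it was larger for 78.1%.

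Gene lists for immune, stromal, endocrine and other cell types show where replicate 1 stood. In each list below, counts of members that rose or fell stand beside 8.4% and 1.42% of all genes tested. Counts with the ages apart stand beside 7.62% above and 11.7% below. For 25 tested genes of the B-cell and antibody lists, replicate 1 exceeded all 6-week-old mice in 18, replicate 2 in 21 and replicate 3 in 23. For the 155 tested genes of the other immune lists, the numbers were 13, 146 and 147. As shares these are 72%, 84% and 92% for the B-cell and antibody lists and 8.39%, 94.2% and 94.8% for the others. The shares of all genes tested were 21.8%, 33.7% and 31.6%, so replicate 1 was below that share in the other immune lists. In replicate 1 most B-cell genes were thus above the 6-week range, whereas most T-cell, myeloid and interferon-induced genes were not. With 3 mice per age, no test of a single mouse can be made. Among the 6-week-old mice, replicate 3 had the highest value for 16 of 16 T-cell genes, 12 of 12 B-cell genes and 14 of 15 macrophage genes.

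**Figure D1:**
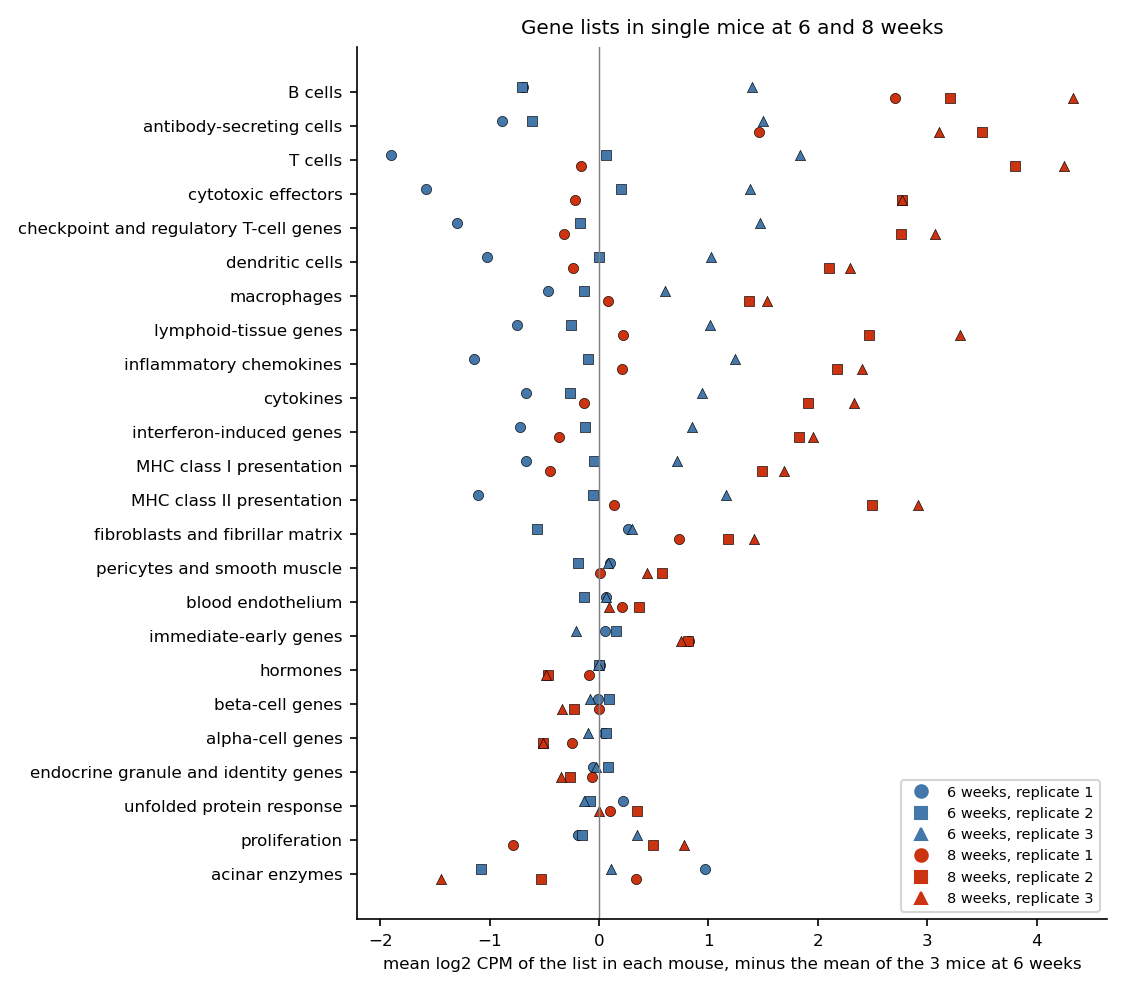
Mean log2 CPM of each gene list in single mice, as the difference from the mean of the 3 mice at 6 weeks (x axis), with blue symbols for 6 and red symbols for 8 weeks and the symbol shape for the replicate. For B cells the 3 older mice sit at 2.70, 3.20 and 4.33, whereas for T cells replicate 1 sits at -0.17 and replicates 2 and 3 at 3.81 and 4.25.

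Of the immune lists, the B-cell list had the highest share of members in which the ages did not overlap. All 12 B-cell genes rose, with a median log2 fold change of 3.71 against -0.01 over all genes tested, and in 11 of them the 3 older mice lay above the 3 younger ones, a pattern that held for 7.62% of all genes tested. Fcer2a (chromosome 8, 3681737 to 3694175 on mm10), the low-affinity IgE receptor of mature B cells, had 2, 9 and 20 counts in 6-week replicates 1 to 3 and 96, 123 and 256 at 8 weeks. Its log2 fold change was 3.98 (SE 0.63, p 3.18e-05, adjusted p 0.117), and it was above the 6-week range in all 3 older mice. Pax5 (chromosome 4, 44524757 to 44710487), the transcription factor that maintains B-cell identity, went from 11, 10 and 26 to 149, 137 and 345 counts (log2 fold change 3.78, SE 0.61, adjusted p 0.117). Blk, a kinase of B-cell receptor signalling, went from 3, 1 and 9 to 38, 56 and 116 counts (4.01, SE 0.67). Bank1, a scaffold in the same pathway, went from 3, 7 and 28 to 86, 129 and 255 counts (3.65, SE 0.66). In these 4 genes every 8-week value, that of replicate 1 included, was above every 6-week value. The smallest rise of the list was that of Cd79a, a subunit of the B-cell receptor, at 1.04. Fcrla was the member whose ages overlapped, with 48 counts in 6-week replicate 3 and 29 in 8-week replicate 1.

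Several immunoglobulin transcripts rose too. Of 13 tested genes of the antibody list, 7 rose, 6 of these with the ages apart, and the median log2 fold change was 3.61. Ighm (chromosome 12, 113418558 to 113422730), the heavy chain of IgM, was at 19.5, 6.79 and 63.1 CPM at 6 weeks and at 164, 536 and 1157 CPM at 8 weeks (log2 fold change 4.38, SE 0.98, p 0.000671, adjusted p 0.159). Ighd, the IgD chain of naive B cells, went from 4, 8 and 45 to 114, 245 and 455 counts (3.85). Mzb1, a chaperone of immunoglobulin assembly, went from 9, 17 and 47 to 119, 288 and 589 counts (3.78). Of the switched isotypes, Ighg3, Ighg2b and Ighg2c were highest in 8-week replicate 2, and Igha and Ighg1 were highest in 8-week replicate 3. Ighg2b rose from 14, 120 and 223 to 188, 3692 and 580 counts (3.68, p 0.0166), with overlap of the ages. Igha and Ighg1 missed the threshold (p 0.228 and 0.188). Ighg3 had 0 counts in all 6-week-old mice and 6, 941 and 21 at 8 weeks, at least 109-fold higher on the group means against a floor of 3 counts per library, a bound set by replicate 2. Ighg2c had 1032 counts in 8-week replicate 2 and 401 in 6-week replicate 3, against 72 or fewer in the other 4, with a p of 0.379. The plasma-cell genes Prdm1 and Sdc1, which other islet cells also express, had log2 fold changes of 0.25 each (p 0.29 and 0.299), and Tnfrsf17, the maturation receptor of plasma cells, had at most 4 counts in any library. The antibody count was 5 and the median 2.18 without 8-week replicate 2, and they were 11 and 4.77 without 6-week replicate 3.

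Among the genes of lymphoid tissue, 12 of 16 rose (median log2 fold change 2.29), but the ages were apart only for Cxcl13 and its receptor Cxcr5. Cxcl13 (chromosome 5, 95956951 to 95961068), the chemokine that draws B cells into follicles, had 38, 5 and 24 counts at 6 weeks and 867, 627 and 358 at 8 weeks. Its log2 fold change of 4.80 (SE 0.71, p 1.58e-05, adjusted p 0.0869; 0.861 ± 0.691 CPM against 22.3 ± 9.42, mean ± SD of 3 mice) had the second smallest p among all genes that rose. Cxcl13 was also the member for which replicate 1 had the highest value of the 8-week-old mice. Cxcr5 went from 0, 9 and 22 to 46, 124 and 241 counts (log2 fold change 3.76, SE 0.95, p 0.0017). The exact permutation test over the 6 mice gave 0.1, two-sided, for Cxcl13, Cxcr5 and each other gene whose ages did not overlap, the smallest p that 3 against 3 allows.

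Other lymphoid-tissue genes rose through replicates 2 and 3. Ltb, a lymphotoxin subunit that organises lymphoid tissue, was at 2.59 CPM in replicate 1 and at 16.6 and 35.1 CPM in replicates 2 and 3, against 0.594, 1.81 and 4.06 CPM at 6 weeks (log2 fold change 3.08, p 0.0043). Glycam1 (chromosome 15, 103562762 to 103565078), a ligand of L-selectin on high endothelial venules, had 1, 15 and 33 counts at 6 weeks and 2, 113 and 882 at 8 weeks (4.40, SE 1.30, p 0.00505), most of them in replicate 3. Madcam1, the adhesion molecule that binds gut-homing lymphocytes, followed the same order with 1, 17 and 64 counts. Ccl19, which attracts T cells and dendritic cells, rose by 2.45 (p 0.0267), and Ccl21a, a ligand of the same receptor, had a log2 fold change of 1.03 with a p of 0.162. Ltbr, the lymphotoxin receptor of stromal cells, differed by -0.09 (SE 0.11). The lymphoid-tissue count was 4 without 8-week replicate 3, 6 without 6-week replicate 2, 7 without 6-week replicate 1 or with the 6 mice alone, and 14 without 8-week replicate 1.

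**Figure D2:**
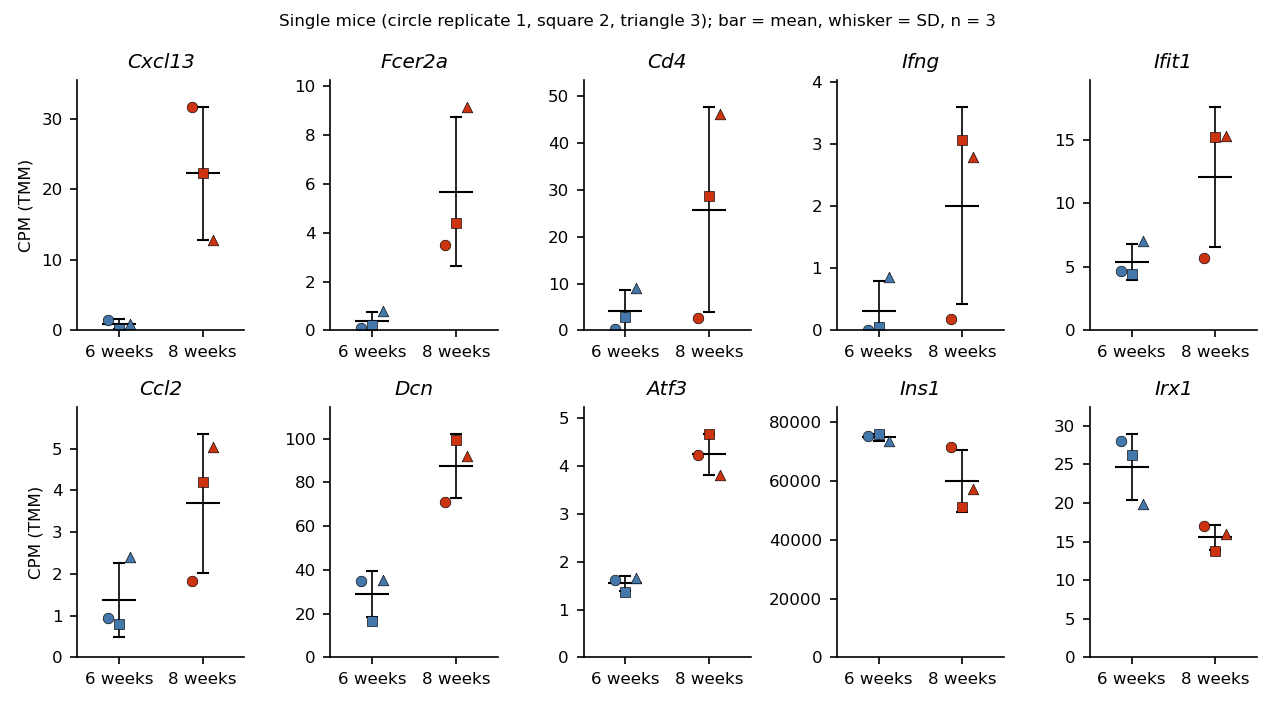
CPM of 10 genes in the 3 mice at 6 weeks (blue) and the 3 at 8 weeks (red), with the symbol shape for the replicate, the horizontal bar for the mean and the whisker for the SD (n = 3). Cxcl13, Fcer2a, Dcn and Atf3 are above the 6-week range in all 3 older mice, whereas for Cd4, Ifng, Ifit1 and Ccl2 the red circle of replicate 1 lies among the blue symbols.

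T-cell transcripts rose in 15 of 16 genes, with a median log2 fold change of 2.82, and in 0 of the 16 were the ages apart. Tcf7 (chromosome 11, 52252371 to 52283014), a transcription factor of naive and memory T cells, was at 0.475, 0.763 and 4.81 CPM at 6 weeks and at 2.15, 23.4 and 31.0 CPM at 8 weeks (log2 fold change 3.27, SE 0.95, p 0.00464, adjusted p 0.172). Icos, a costimulatory receptor, went from 2, 14 and 35 to 10, 264 and 289 counts (3.49, p 0.00689), and Lck, the kinase of the T-cell receptor, from 27, 98 and 200 to 82, 772 and 1053 counts (2.58, p 0.0111). Cd4 had 10, 110 and 230 counts at 6 weeks and 70, 804 and 1290 at 8 weeks (2.66, p 0.0247), and Cd8a 1, 39 and 103 against 15, 426 and 490 (2.72, p 0.0341). In each of these 5 genes 8-week replicate 1 lay between the lowest and the highest 6-week-old mouse, and replicates 2 and 3 lay above all of them. The member that missed the threshold was Cd3e, with a log2 fold change of 2.47 and a p of 0.0516. The number of T-cell genes past the threshold depended on single mice: it was 5 without 8-week replicate 3, 6 without 6-week replicate 1 or without 6-week replicate 2, 8 with the 6 mice fitted alone and 16 without 8-week replicate 1. For B cells it was 10 to 12 under the same changes.

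**Figure D3:**
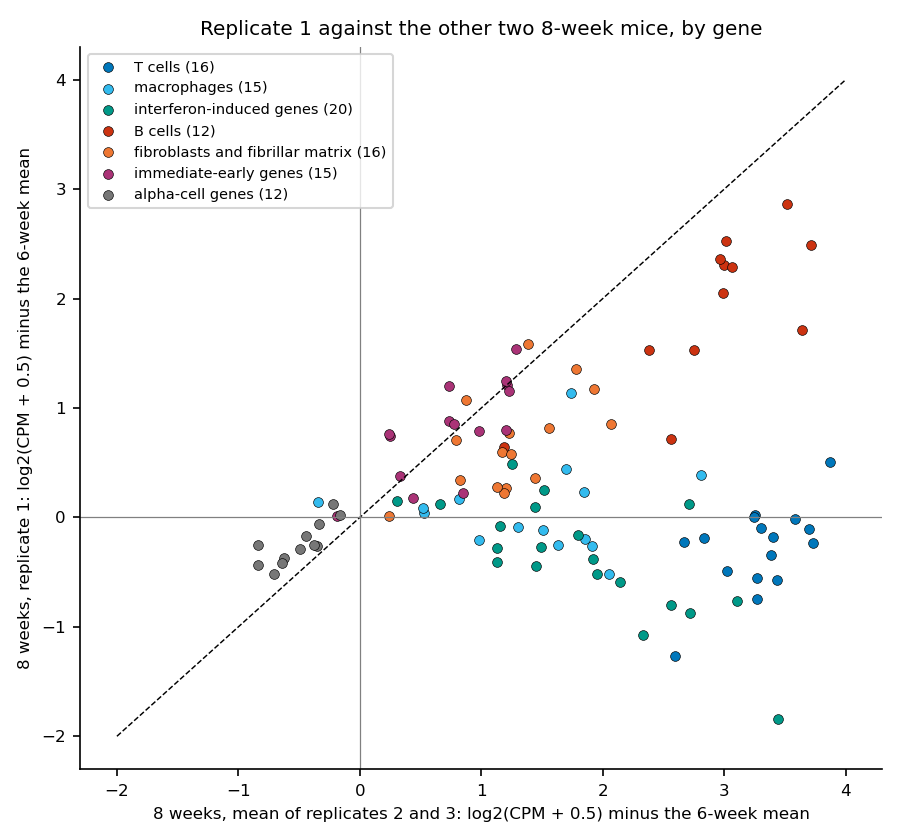
Log2(CPM + 0.5) of single genes, as the difference from the mean of the 6-week-old mice, in 8-week replicate 1 (y axis) against the mean of 8-week replicates 2 and 3 (x axis), by list with the number of tested genes in brackets, and a dashed line of equal change. Nearly all B-cell, fibroblast and immediate-early genes are above 0 on both axes, while most T-cell, macrophage and interferon-induced genes lie well to the right of 0 with y values near or below 0.

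Cytotoxic and regulatory genes followed the T-cell pattern. Of 12 effector genes, 5 rose (median log2 fold change 1.98). Eomes, a transcription factor of effector lymphocytes, had 0, 3 and 14 counts at 6 weeks and 4, 77 and 91 at 8 weeks (3.34, SE 1.11, p 0.0105). Ncr1, an activating receptor of natural killer cells, went from 0, 9 and 9 to 11, 51 and 44 counts (2.63, p 0.0122) and was the member of this list with the ages apart. Gzmb, a granule protease, had 0, 19 and 8 against 0, 34 and 31 counts, with a p of 0.269. Among 12 checkpoint and regulatory T-cell genes, 8 rose (median 1.90). Lag3, an inhibitory receptor, had 4, 33 and 58 counts at 6 weeks and 20, 352 and 479 at 8 weeks (3.21, SE 1.01, p 0.0076), and Pdcd1, which encodes PD-1, 1, 8 and 45 against 12, 214 and 277 (3.20, p 0.0179). Foxp3, the master regulator of regulatory T cells, had 1, 7 and 64 counts against 10, 159 and 233, with a p of 0.065. Foxp3 overlaps Ccdc22 on the opposite strand, and how reads of overlapping genes were divided is not given in the sources used here. Ikzf2, also a factor of regulatory T cells, was the member with the ages apart, at 9.39, 7.21 and 10.7 CPM against 11.6, 22.2 and 22.5 CPM (1.05, SE 0.26, p 0.00154). In 6-week replicate 1, however, Ikzf2 had 237 counts where Foxp3 had 1 and Cd3e 2, so its rise cannot be assigned to regulatory T cells. Leaving out 6-week replicate 1, 6-week replicate 2 or 8-week replicate 3 left 2 genes past the threshold in each of these lists, and leaving out 8-week replicate 2 left 3. Without 6-week replicate 3 or 8-week replicate 1 the checkpoint count was 12, and the cytotoxic count 8 and 9.

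Macrophage genes rose in 9 of 15 tested cases, with a median log2 fold change of 1.27. Mrc1 (chromosome 2, 14229392 to 14332057), the mannose receptor, was the member with the ages apart, at 46, 43 and 84 counts at 6 weeks and 133, 225 and 204 at 8 weeks (1.70, SE 0.46, p 0.00284, adjusted p 0.172). Cd68, a lysosomal protein of phagocytes, went from 2.73, 3.26 and 6.50 to 4.67, 14.6 and 16.1 CPM (1.51, p 0.0135), with replicate 1 inside the 6-week range. Lyz2, a lysozyme of myeloid cells, went from 25.4, 40.6 and 98.9 to 61.5, 273 and 403 CPM (2.16, p 0.0152). Trem2, a lipid receptor of macrophages, differed by -0.22 (SE 0.32). Of 12 dendritic-cell genes, 6 rose (median 1.49), with 0 apart. Ccr7, which guides mature dendritic cells and T cells to lymphoid tissue, went from 2, 26 and 36 to 38, 274 and 323 counts (3.38, SE 1.01, p 0.00561), and replicate 1, at 1.39 CPM, lay just under the highest 6-week value of 1.42 CPM. Clec9a, a receptor of cross-presenting dendritic cells, went from 4, 23 and 52 to 29, 198 and 157 counts (2.30, p 0.00854). The macrophage count was 1 of 15 without 6-week replicate 1, 6-week replicate 2 or 8-week replicate 3, 4 without 8-week replicate 2, and 11 or 12 without 6-week replicate 3 or 8-week replicate 1. The dendritic-cell count was 2 or 3 without each of the former 4 mice and 11 without each of the latter.

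Inflammatory chemokines rose in 6 of 14 cases (median log2 fold change 1.79). Ccl7 and Ccl3, ligands for receptors of monocytes and lymphocytes, were the members with the ages apart, at 4, 8 and 13 against 33, 39 and 32 counts (2.09, SE 0.65, p 0.0071) and 4, 16 and 13 against 23, 36 and 46 counts (1.76, p 0.0188). Ccl8, a further ligand of such receptors, went from 2, 13 and 56 to 6, 293 and 434 counts (3.37, p 0.0204). Ccl2 (chromosome 11, 82035571 to 82037453), the main attractant of monocytes, had 24, 30 and 61 counts at 6 weeks and 50, 118 and 141 at 8 weeks (1.43, SE 0.57, p 0.0267). Cxcl1, an attractant of neutrophils, was highest in replicate 1, with 58 counts against 12 and 17 in replicates 2 and 3. Cxcl9 and Cxcl10, chemokines induced by interferon gamma, were far lower in replicate 1 than in the other two. Cxcl9 was at 0.357, 12.9 and 60.7 CPM at 6 weeks and at 2.44, 181 and 179 CPM at 8 weeks, with a log2 fold change of 2.30 and a p of 0.149. The chemokine count was 1 without 6-week replicate 1, 2 without 8-week replicate 3, 3 without 6-week replicate 2, 9 without 8-week replicate 1 and 12 without 6-week replicate 3.

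Of the cytokines, 7 of 13 rose (median 1.61), with 0 apart. Il21 (chromosome 3, 37222759 to 37232636), the cytokine of follicular helper T cells, had 0, 1 and 4 counts at 6 weeks and 2, 52 and 62 at 8 weeks (log2 fold change 4.49, SE 1.22, p 0.00289, adjusted p 0.172). Il1b, a product of activated myeloid cells, went from 1.94, 2.39 and 3.23 to 2.44, 7.45 and 9.93 CPM (1.39, p 0.0177), and Tgfb1 from 12.1, 11.5 and 16.2 to 12.9, 26.5 and 31.2 CPM (0.83, p 0.0183). Il6 had 0, 1 and 4 counts against 8, 2 and 13 (2.18, p 0.0344). Replicate 1 lay within the 6-week range for Il21, Il1b and Tgfb1 and above it for Il6. Ifng, the cytokine of T helper 1 and natural killer cells, had 0, 2 and 22 counts at 6 weeks and 5, 86 and 78 at 8 weeks (2.78, SE 1.23, p 0.042, adjusted p 0.263). Without 6-week replicate 3 its log2 fold change was 5.84, and without 6-week replicate 2 it was 2.20 with a p of 0.13. The cytokine count was 1 without 6-week replicate 1 or 8-week replicate 3, 2 without 6-week replicate 2, 4 without 8-week replicate 2, and 11 or 12 without 6-week replicate 3 or 8-week replicate 1. Tnf had 15, 6 and 31 counts against 7, 75 and 81, with a p of 0.0941. Of the other regulators that the study names, Itpr2, an intracellular calcium channel, rose by 0.66 (SE 0.25, p 0.0192), Id2 and Nfkb1 differed by 0.69 (p 0.0759) and 0.30 (p 0.106), and Il4 had 2 counts in 8-week replicates 1 and 3 and 0 in the other 4 libraries.

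Interferon-induced genes are switched on in most cell types when interferons bind their receptors. Of 20 such genes, 8 rose, with a median log2 fold change of 1.34, and the ages were apart for Mx1 alone. In replicates 2 and 3 all 20 lay above the 6-week range, and in replicate 1 that was the case for 1 of 20. Ifi44 had the smallest p of the list, at 42, 46 and 60 counts against 58, 167 and 158 (1.40, p 0.00717). Mx1, an antiviral GTPase, was at 1.58, 2.13 and 2.05 CPM against 2.88, 3.92 and 6.93 CPM (1.25, SE 0.46, p 0.0185). Replicate 1 lay within the 6-week range for Ifi44 and above it for Mx1. Ifit1, which binds viral RNA, went from 119, 169 and 178 to 156, 428 and 428 counts (1.17, p 0.0198). Socs1, a feedback inhibitor of the pathway, went from 24, 55 and 54 to 34, 170 and 183 counts (1.61, p 0.0262). The guanylate-binding and immunity-related GTPases Gbp2, Gbp3, Irgm1 and Iigp1 had log2 fold changes of 1.34 to 2.02 but p values of 0.0595 to 0.15, and in each of them replicate 1 lay below 2 of the 3 younger mice. Gbp7, a further guanylate-binding GTPase, passed the threshold (1.35, p 0.0457). The count was 18 of 20 without 8-week replicate 1, 16 without 6-week replicate 3, and 1 or 2 without 8-week replicate 2 or 3 or 6-week replicate 1 or 2.

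The promoters of these genes were searched for sequences of interferon signalling. The list is made of genes known to respond to interferon, so a high share of such sequences follows from the list. It says nothing about the difference between the ages, and Gbp2, Gbp3 and Irgm1, which missed the threshold, hold GAAANNGAA too. RefSeq promoters of GRCm38.p6, the 250 bases before and 50 after the start site, were found for 16 of the 20 genes. GAAANNGAA, the core of the interferon-stimulated response element, occurred on either strand in 12 of the 16 (75%), against 8.57% of the 27025 genes with a promoter in the table. The palindrome TTCNNNGAA occurred in 5 of 16 (31.2%) against 8.47%, and TGANTCA, the AP-1 palindrome, in 4 of 16 (25%) against 7.93%. A match describes the letters and shows no binding. The promoters of the 4 genes past the threshold that held GAAANNGAA upstream of the start are printed 5′ to 3′ on the gene's strand, because they show how the copies are arranged, with the copies on either strand in capitals.

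Ifit1 (chr19:34640639-34640938, plus strand): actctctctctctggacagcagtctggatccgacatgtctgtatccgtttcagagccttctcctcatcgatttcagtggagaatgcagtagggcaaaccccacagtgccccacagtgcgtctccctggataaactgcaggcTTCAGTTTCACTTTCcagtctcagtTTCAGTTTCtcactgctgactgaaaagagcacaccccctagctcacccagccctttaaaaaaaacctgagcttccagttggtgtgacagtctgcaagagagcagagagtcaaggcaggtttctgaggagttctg

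Isg15 (chr4:156200769-156201068, minus strand): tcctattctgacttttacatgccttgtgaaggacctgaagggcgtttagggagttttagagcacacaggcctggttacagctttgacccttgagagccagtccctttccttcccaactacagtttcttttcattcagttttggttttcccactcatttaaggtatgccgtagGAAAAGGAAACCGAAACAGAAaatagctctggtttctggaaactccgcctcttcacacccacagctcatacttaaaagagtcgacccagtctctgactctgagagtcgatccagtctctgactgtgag

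Socs1 (chr16:10785487-10785786, minus strand): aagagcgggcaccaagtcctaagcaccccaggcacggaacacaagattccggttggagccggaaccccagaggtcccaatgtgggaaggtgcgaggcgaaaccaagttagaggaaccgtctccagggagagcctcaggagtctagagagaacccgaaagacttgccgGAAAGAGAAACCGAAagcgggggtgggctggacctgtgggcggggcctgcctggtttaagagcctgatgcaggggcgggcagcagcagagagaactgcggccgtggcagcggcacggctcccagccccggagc

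Gbp7 (chr3:142530086-142530385, plus strand): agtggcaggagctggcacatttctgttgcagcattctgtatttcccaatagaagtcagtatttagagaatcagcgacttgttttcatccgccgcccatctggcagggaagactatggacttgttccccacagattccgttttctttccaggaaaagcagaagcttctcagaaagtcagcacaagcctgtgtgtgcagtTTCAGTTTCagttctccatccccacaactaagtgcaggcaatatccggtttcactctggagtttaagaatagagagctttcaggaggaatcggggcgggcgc

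In Ifit1, Isg15 and Socs1 copies overlap one another, so that the capitals form longer runs: Isg15 holds 3 copies in 1 run on the gene's strand, whereas in Ifit1 and Gbp7 they lie on the opposite strand. Of the other genes past the threshold, Ifi44 held 1 copy that spans the start site, Irf8 held none but 2 copies of TTCNNNGAA, and the table had no entry for Mx1.

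MHC class II molecules present antigen to CD4 T cells and are made by professional antigen-presenting cells, and class I molecules present it to CD8 T cells. Of 11 class II genes, 9 rose, with a median log2 fold change of 1.80, and of 12 class I genes 2 rose, with a median of 1.10. H2-Ob (chromosome 17, 34238903 to 34245907), a chaperone subunit typical of B cells, was the class II member with the ages apart, at 12, 32 and 75 counts at 6 weeks and 85, 273 and 514 at 8 weeks (2.90, SE 0.81, p 0.00345). Its partner H2-Oa went from 2, 15 and 31 to 18, 140 and 191 counts (2.90, p 0.0103). H2-DMb2, which helps load peptides, went from 1.43, 2.39 and 6.82 to 5.54, 19.6 and 33 CPM (2.47, p 0.00733). For H2-Oa and H2-DMb2 replicate 1 lay within the 6-week range. Cd74, the invariant chain made by all antigen-presenting cells, was at 113, 216 and 441 CPM against 196, 1156 and 1341 CPM (1.80, p 0.0343). H2-K1 and B2m, the heavy and light chains of class I found on nearly all cells, were the class I members that rose, by 1.52 (p 0.039) and 1.87 (p 0.0424). B2m was at 79.7, 156 and 354 CPM against 113, 945 and 1103 CPM. All 12 class I genes were lower in replicate 1 than in any other 8-week-old mouse, and 4 of them were below every 6-week-old mouse in it. Without 8-week replicate 1 all 12 passed the threshold, and without any other single mouse of these ages the number was 0 to 7. The class II count was 3 of 11 without 6-week replicate 1, 6-week replicate 2, 8-week replicate 2 or 8-week replicate 3, and 11 without either of the other two.

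**Figure D4:**
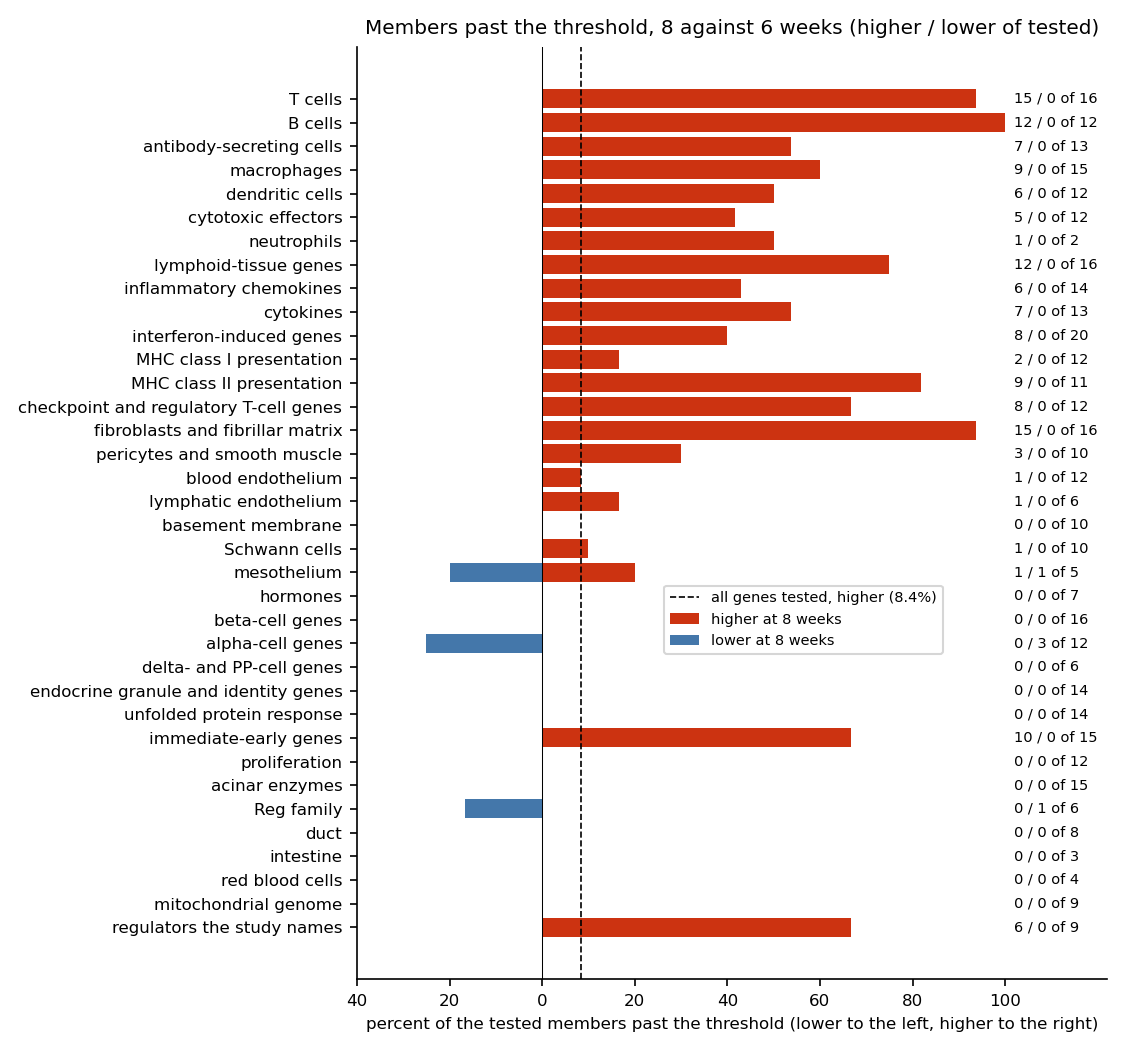
Percent of the tested members of each list past the threshold, higher at 8 weeks to the right (red) and lower to the left (blue), with the numbers higher and lower of those tested at the right margin and a dashed line at the 8.4% of all genes tested that were higher. B-cell, T-cell and fibroblast genes reach the highest shares, and hormones, beta-cell genes and acinar enzymes have 0 members past the threshold.

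Among the stromal lists, that of fibroblasts had the most members past the threshold. Of 16 genes of fibroblasts and fibrillar matrix, 15 rose, with a median log2 fold change of 1.06, and in 11 the ages were apart. The shares of all genes tested were 8.4% higher and 7.62% with the 3 older mice above the 3 younger ones. Dpt (chromosome 1, 164796644 to 164824266), dermatopontin, which binds collagen fibrils, was at 11.9, 7.58 and 13.8 CPM at 6 weeks and at 24.9, 36 and 49.9 CPM at 8 weeks (1.74, SE 0.36, p 0.000361, adjusted p 0.142). Lum, a proteoglycan that spaces collagen fibrils, went from 299, 254 and 321 to 496, 831 and 874 counts (1.35, p 0.000742). Fbn1, the main protein of microfibrils, went from 16.8, 9.15 and 14.3 to 22.6, 31.7 and 30.8 CPM (1.08, p 0.00143). Dcn (chromosome 10, 97479500 to 97518162), decorin, went from 35.1, 16.7 and 35.2 to 71.0, 99.3 and 92.0 CPM (1.60, SE 0.40, p 0.0016). Each of these 4 was above the 6-week range in all 3 older mice, with replicate 1 the lowest of them. Sparc, a matrix protein that many islet cells also make, was the member that missed the threshold (0.17, SE 0.14). All 16 fibroblast genes had their lowest 6-week value in replicate 2, the library with intestinal transcripts. Without it 8 of the 16 genes passed the threshold, and without 8-week replicate 3 there were 9.

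Vessels, pericytes and glia had fewer genes past the threshold. Of 10 pericyte and smooth-muscle genes, the contractile genes Des, Tagln and Acta2 rose by 0.96, 0.83 and 0.92, and Tagln had the ages apart, at 8.88, 7.63 and 8.44 against 12.8, 15.7 and 15.8 CPM (SE 0.27, p 0.00984). Tagln overlaps Pcsk7 on the opposite strand. Rgs5, the most abundant pericyte gene, differed by 0.16 (p 0.143). In 5 of 12 genes of blood endothelium the 3 older mice lay above the 3 younger ones, against 7.62% of all genes tested. Only 1 of the 12 rose, a share near the 8.4% of all genes. It was Vwf, von Willebrand factor, stored by venous endothelium, at 4.71, 2.08 and 5.87 CPM at 6 weeks and 7.70, 18.3 and 10.1 CPM at 8 weeks (1.53, SE 0.40, p 0.0023). Pecam1, an adhesion molecule shared by all endothelium, was above the 6-week range in all 3 mice, at 107, 119 and 112 CPM against 85.5, 80.6 and 86.7 CPM, a log2 fold change of 0.42 that lies under the fold limit (p 0.00108). Adhesion molecules of activated endothelium were higher in replicates 2 and 3. Vcam1 was at 6.49 CPM in replicate 1 and 46 and 58.2 CPM in replicates 2 and 3 against 4.60, 5.58 and 18.1 CPM at 6 weeks (1.98, p 0.0209), and Selp went from 19, 11 and 42 to 41, 129 and 105 counts (1.91, p 0.00767). Of 6 lymphatic genes 1 rose, Pdpn, a mucin-like protein that fibroblastic cells also carry (1.20, p 0.0227). Of 10 Schwann-cell genes 1 rose, Ngfr, the low-affinity nerve growth factor receptor (1.22, p 0.0201). Both were highest in replicate 3, and both counts were 0 without 8-week replicate 3. With 8.4% of all genes tested higher, 1 member in a list of this size is not far from that share. Of 10 basement-membrane genes 0 passed the threshold. Among 5 tested mesothelial genes Msln, mesothelin, fell from 68.2, 118 and 84.7 to 44.3, 41.3 and 52.8 CPM (-0.97, SE 0.25, p 0.00178), while Wt1 rose from 3, 5 and 1 to 21, 11 and 4 counts (p 0.0486). The rise of Wt1 rests on few counts and passed the threshold in 6 of the 13 alternatives that tested it.

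Immediate-early and heat-shock genes were higher in all 3 mice by nearly the same amount. Of 15 genes 10 rose, with a median log2 fold change of 0.79, and in 10 the ages were apart. Of all genes tested 8.4% rose, and 7.62% had the 3 older mice above the 3 younger ones. The list mean exceeded that of the 6-week-old mice by 0.83, 0.82 and 0.75 in replicates 1, 2 and 3, so the list did not share the gap between replicate 1 and the others. Atf3 (chromosome 1, 191170296 to 191218039), a stress-induced transcription factor, was at 1.62, 1.37 and 1.66 CPM at 6 weeks and at 4.23, 4.67 and 3.82 CPM at 8 weeks (1.45, SE 0.29, p 0.000251, adjusted p 0.122). Junb, an AP-1 subunit, went from 39.9, 54.3 and 44.4 to 79.5, 85.8 and 96.4 CPM (0.92, p 0.000268). Junb overlaps Prdx2 on the opposite strand. Zfp36, which destabilises cytokine messages, went from 29.8, 32.1 and 32.0 to 54.8, 65.8 and 80.2 CPM (1.09, p 0.000577), and Fosb from 111, 167 and 53 to 302, 281 and 234 counts (1.43, p 0.000955). The 3 older mice lay above the 3 younger ones in each of these 4 genes. The heat-shock genes Hspa1a and Hspa1b rose by 1.21 (p 0.00314) and 1.22 (p 0.00556). They are near-identical copies, so the division of reads between them is uncertain. Genes of this kind also respond to digestion and handling of tissue, whose part in the result was not tested. Of 14 genes of the unfolded protein response 0 passed the threshold (median 0.18), with the largest log2 fold change, 0.38, for Asns.

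Most endocrine transcripts had lower values at 8 weeks, with differences under the fold limit. Of 7 hormone genes 0 passed the threshold, with a median log2 fold change of -0.33, and for 4 of them (Ins1, Gcg, Ppy and Pyy) the 3 older mice lay below the 3 younger ones, a pattern of 11.7% of all genes tested. Ins1 (chromosome 19, 52264323 to 52265456) was at 75080, 75810 and 73500 CPM at 6 weeks and at 71440, 51040 and 57200 CPM at 8 weeks (-0.32, SE 0.17, p 0.0756). Ins2, its paralog, was at 167100, 185300 and 166700 against 168700, 125100 and 118100 CPM (-0.33, p 0.104). Gcg was at 42420, 39330 and 35880 against 34780, 29480 and 28120 CPM (-0.35, SE 0.14, p 0.0303). Ppy, pancreatic polypeptide, had the largest difference of the hormones, -0.64 (p 0.0508). In each of these 4 genes replicate 1 was the 8-week-old mouse with the highest value. The summed hormone CPM of replicates 1, 2 and 3 was 95.8%, 72.6% and 71.6% of the 6-week mean. CPM are shares of a library, so less hormone RNA and more RNA from other cells cannot be told apart. With library totals in place of TMM, which moves the median of all genes by 0.106, the hormone median was -0.24. Without 8-week replicate 1, with the exact test, with no filter or with the 6 mice alone, 1 of the 7 hormone genes passed the threshold as lower.

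In the beta-cell list few members had the ages apart, and in the alpha-cell list most did. Of 16 beta-cell genes 0 passed the threshold (median -0.22), and 2 had the ages apart. Of all genes tested 1.42% fell, and 11.7% had the 3 older mice below the 3 younger ones, so the beta-cell list was near the share of all genes. Pdx1, the beta-cell transcription factor, was at 196, 215 and 196 against 196, 162 and 151 CPM (-0.26, p 0.121), with replicate 1 level with the 6-week-old mice, and Slc2a2, the glucose transporter, differed by -0.33 (p 0.136). Of 12 alpha-cell genes 3 fell (median -0.41), and in 10 the ages were apart. Irx1 (chromosome 13, 71957921 to 71963723), a transcription factor of alpha cells, fell from 28.0, 26.2 and 19.8 to 17.0, 13.8 and 15.9 CPM (-0.67, SE 0.17, p 0.00171, adjusted p 0.162). Slc38a5, a glutamine transporter of alpha cells, fell from 46.1, 54.3 and 37.6 to 33.5, 24.2 and 26.4 CPM (-0.72, SE 0.20, p 0.00337). Gc, the vitamin D-binding protein, also below the 6-week range in all 3 mice, differed by -0.56. The alpha-cell count was 1 with library totals or without 6-week replicate 2 or 8-week replicate 2, 2 without 6-week replicate 1 or 8-week replicate 3, and 5 without 6-week replicate 3 or 8-week replicate 1. Whether the alpha-cell list differed from the beta-cell list was not tested. Genes of secretory granules and endocrine identity had a median of -0.20 with 0 of 14 past the threshold, among them Chga and Cpe at -0.21 and -0.37. Of 6 genes of delta and PP cells 0 passed it, and Ghsr, the ghrelin receptor of delta cells, lay below the 6-week range in all 3 mice (-0.56, p 0.012).

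Exocrine tissue in the libraries varied between mice. The acinar enzymes were highest in replicate 1 at 6 and at 8 weeks, and replicates 1, 2 and 3 at 8 weeks held 106%, 55.1% and 30.1% of their summed 6-week mean. Cpa1, a carboxypeptidase, was at 783, 179 and 464 against 489, 261 and 150 CPM (-0.66, p 0.483). Of 15 acinar genes 0 passed the threshold. Of 6 Reg genes, Reg3b, a protein of stressed exocrine tissue, fell (149, 3 and 55 against 10, 8 and 11 counts, p 0.0327), with overlap of the ages. Reg3b passed the threshold in 9 of 14 alternatives. The 8 duct genes summed to 282 to 327 CPM at 6 and 245 to 256 CPM at 8 weeks, with 0 past the threshold. Their part in the immune and endocrine differences was not tested. Of 12 proliferation genes 0 passed the threshold. All 12 were lower in replicate 1 than in every 6-week-old mouse, against 26.6% of all genes tested. In replicates 2 and 3, 8 and 10 of them were above the 6-week range, against 33.7% and 31.6% of all genes tested. Mki67, the cycling-cell antigen, was at 16.8, 14.1 and 24.5 against 9.27, 32.7 and 35.4 CPM (0.48, p 0.259). Without 8-week replicate 1, 5 of the 12 proliferation genes passed the threshold, all higher, with a median of 0.71 against 0.33 with all mice.

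Over all genes, the 10 increases with the smallest p among genes whose ages were apart, with a mean of at least 1 CPM, included 8 genes of B cells or immunoglobulin. The 10 were Fcmr, Cxcl13, Fcer2a, Pax5, Blk, Bank1, Cd79b, Igkv1-110, Ighd and Pcdh18. Fcmr, the IgM receptor of B cells, which was not on the lists, led them, with 8, 10 and 15 counts at 6 weeks and 64, 117 and 174 at 8 weeks (3.47, SE 0.51, p 1.33e-05, adjusted p 0.087). Igkv1-110 is a variable segment of a family of similar sequences, so its reads are uncertain, and it was carried by replicate 2 with 800 counts against 98 and 144. Pcdh18, a protocadherin, is no lymphocyte marker and was at 2.18, 1.81 and 2.13 against 3.72, 4.03 and 3.93 CPM (0.93, SE 0.17).

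The 10 decreases chosen in the same way were Cnih2, Prss8, Hpn, Pcdhga8_1, Il20rb, Pbk, Galns, Cyp46a1, Ciart and Gm45109, with log2 fold changes of -0.60 to -2.44, of which Ciart, a clock gene, had the largest. Cnih2, an auxiliary protein of AMPA receptors, went from 3.41, 4.08 and 5.01 to 1.82, 1.85 and 1.82 CPM (-1.18, SE 0.17, p 1.44e-05, adjusted p 0.087), with the 3 older mice close together. Cnih2 overlaps Yif1a, Prss8 overlaps Kat8 and Gm45109 overlaps Spty2d1, each on the opposite strand and with more counts, and Pcdhga8_1 shares its region with the other gamma-protocadherin genes, so the reads of these 4 are uncertain. Hpn, a membrane serine protease, fell from 9.51, 12.7 and 10.8 to 6.38, 4.63 and 5.78 CPM (-0.97, SE 0.17, p 1e-04). Pbk, a mitotic kinase, fell from 8.24, 7.08 and 9.34 to 3.06, 3.99 and 3.50 CPM (-1.22, SE 0.24), and in all 3 older mice lay below the 6-week range, whereas Mki67 was above it in replicates 2 and 3.

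Set beside the other ages, 8 weeks lay between 6 and 10 weeks in the B-cell and T-cell lists. From 4 to 12 weeks, the list means of log2 CPM in B cells were -1.83, -0.61, 2.80, 4.92 and 5.50 in order of age. Those of T cells were -0.47, -0.12, 2.51, 5.0 and 5.25, and 8-week replicate 1 lay within the range of the 4- and 6-week-old mice. The fibroblast mean was 4.51 and 4.57 at 4 and 6 weeks, then 5.68, 6.08 and 6.51. Immediate-early genes stood at 4.53 and 4.50, then 5.29, 5.43 and 5.81. Hormones stood at 14.1 and 14.0, then 13.7, 13.2 and 12.97. Cxcl13 was at 0.689 CPM at 4 weeks and 77.9 and 80.8 CPM at 10 and 12 weeks, against 22.3 CPM at 8 weeks.

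**Figure D5:**
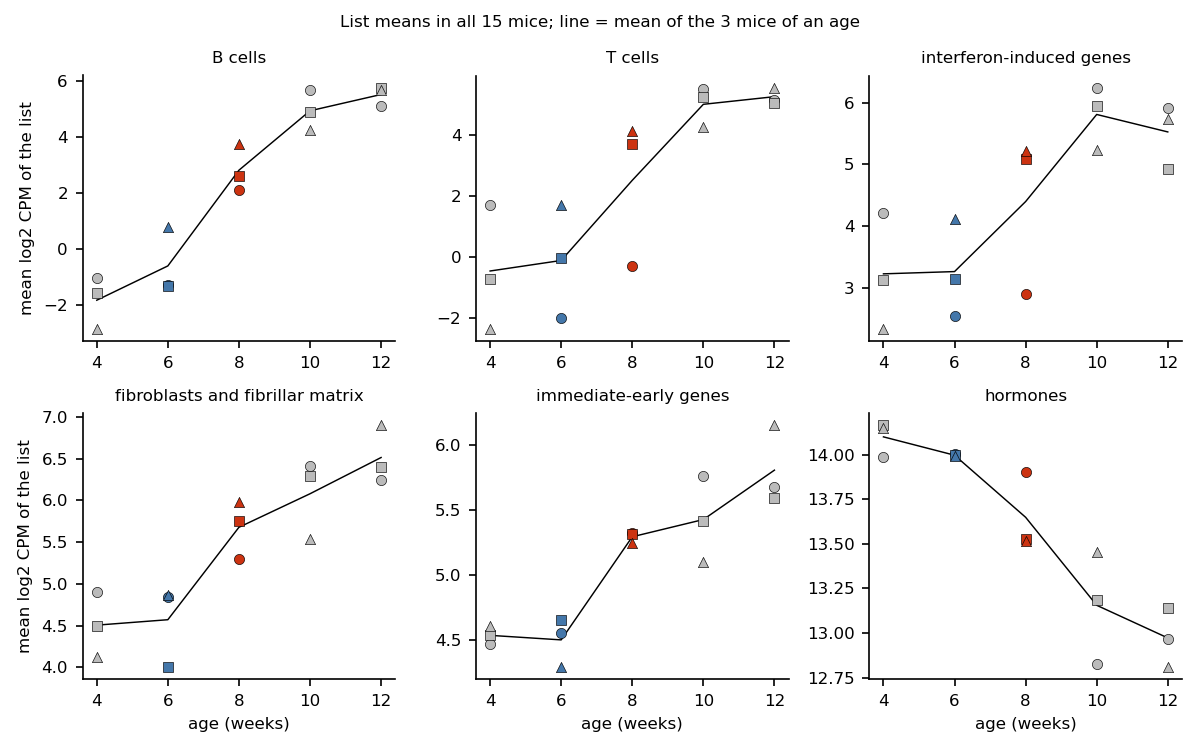
Mean log2 CPM of 6 gene lists (y axis, a separate scale in each panel) in each of the 15 mice by age in weeks (x axis), with the symbol shape for the replicate and a line through the age means. At 8 weeks (red) the 3 mice lie close together for immediate-early genes, whereas for T cells and interferon-induced genes replicate 1 lies among the 4- and 6-week-old mice.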

How the data were processed

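Islets of 15 untreated NOD females, 3 at each of 5 ages, were profiled by polyA RNA-seq, and the mice of an age are different animals. The authors trimmed, aligned and counted the reads in CLC Genomics Workbench, and the processing notes name the build mm10. The deposited values used here are raw read counts per gene, and 45 other per-sample columns (RPKM, TPM and CPM) were not used. Whether counting used strand is not given in the sources used here, so reads of overlapping genes are uncertain.

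Genes were filtered with filterByExpr, scaled by TMM and fitted with the quasi-likelihood test of edgeR 4.0.16 (R 4.3.3) over all 15 mice, with the contrast of 8 minus 6 weeks. The threshold was a fold change of at least 1.5 and a p under 0.05, limits taken from the study and applied here to the unadjusted p, and Benjamini-Hochberg adjusted p values over all genes tested are given beside it. List means used log2 CPM with a prior count of 2. Errors are SDs over 3 mice or the SE of the fitted log2 fold change. The libraries held 26955671 to 41616275 counts, and floors of 3 counts cover counting error only.

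The members and the gene lists were chosen with earlier results of these data known. In each list 2 to 4 members past the threshold with the smallest p were named, or else the member with the highest mean CPM. Outside the lists the 10 increases and 10 decreases with the smallest p were named, among genes past the threshold with a mean of at least 1 CPM whose ages did not overlap. The regulators that the study names were given, except where a gene is not reported here. Other genes were named after their values were seen, for their role or their spread between mice. Promoters came from RefSeq (GRCm38.p6). Alternatives were DESeq2 1.42.0, the edgeR exact test, other scalings, no filter, the 6 mice alone, a replicate block, and leaving out each mouse. A fit without both 8-week replicate 1 and 6-week replicate 3 was chosen after seeing the data.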

Additional observations from a re-analysis of the deposited data

How the results depend on the processing

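The number of genes past the threshold was within 1.5 times the 1625 given above with DESeq2, the edgeR exact test, other scalings, no filter, the 6 mice alone (1140) and the replicate block (1389), and ranged from 927 to 2259 when 1 mouse was left out. The lowest number came without 8-week replicate 3, and the number was 972 without 6-week replicate 2. After adjustment 543 genes passed with DESeq2, 301 with the exact test and 0 to 797 when 1 mouse was left out, with 797 of them reached without 8-week replicate 1. Leaving out both that mouse and 6-week replicate 3, which was chosen after seeing the data, gave 2357 genes past the threshold and 1204 past the adjusted limit. The cause was not tested. With library totals 92.6% of the calls were higher, against 85.5% with TMM. The replicate numbers do not mark shared animals, so they were not used as pairs. The deviations of same-numbered mice from their age mean correlated at 0.509, -0.118 and 0.489. With 3 mice per age these deviations are not independent, so the correlations cannot show whether the numbers mark a batch. With the numbers as a replicate block the threshold was passed by 1389 genes and the adjusted limit by 0, with 3 genes left in the MHC class II list and 3 in the checkpoint list, and 6-week replicate 2 correlated better with 8-week replicate 1 (0.126) than with its own number. Cxcl13, Fcer2a, Ighm, Dcn and Atf3 passed the threshold in all 14 alternatives and Ifng in 6. With 3 mice per age, low genes such as Ifng and Il21 rest on few counts.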

Other observations

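Ciart, a repressor of the circadian clock, was among the 10 decreases named above, and 15 clock genes were therefore looked at after its values had been seen. Of these, 7 fell at the threshold and 0 rose, against 1.42% lower and 8.4% higher among all genes tested. Of those that fell, the ages were apart in Ciart, Dbp, Hlf, Nr1d1 and Nr1d2, and they overlapped in Tef and Per3. Dbp, an output gene of the clock, was at 20.3, 31.4 and 101 CPM at 6 weeks and at 16.7, 12.3 and 13.4 CPM at 8 weeks, so 6-week replicate 3 stood far above the other 5 mice. Arntl, a core activator that peaks opposite to Dbp, was at 24.7, 27.1 and 6.50 CPM against 30.1, 32.5 and 25.6 CPM, with the same mouse far below the others. Replicate 3 at 6 weeks had the highest value of the 6 mice in 10 of the 15 genes and the lowest in 4. The times of day at which islets were collected are not given in the sources used here, and their part in these values was not tested.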
